A study of Mus musculus with 10 samples.

Results

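The Rab genes encode small GTPases of membrane traffic, and their ribosome-bound mRNA was compared between the dorsal and the ventral hippocampus. Members were the protein-coding genes of the GRCm38 annotation whose symbol is Rab followed by a number and an optional letter, which gave 59 of the 54838 genes in the count files. Of these, 52 passed the expression filter, a level above 1 CPM (counts scaled to a common library total) in at least 2 libraries, that left 16806 genes in the test. Translating ribosome affinity purification (TRAP) precipitates ribosomes that carry an EGFP-tagged L10a subunit together with the mRNA bound to them. All 10 libraries came from mossy cell-enriched TRAP mice (MC-TRAP, Drd2-Cre;Eef1a1LSL.eGFPL10a/+) on the C57BL/6 strain, 5 from the dorsal and 5 from the ventral part of the hippocampus, and each library pooled tissue of 5 mice about 10 weeks old. Both parts were dissected from the same 25 mice, and whether a dorsal and a ventral pool of the same number held the same mice is not given in the sources used here. The Cre-dependent tag was thus present in both groups, no input fraction or untagged mouse was analysed here, and Drd2-Cre is also active in some interneurons and other cells outside the hilus. The medial piece of the ventral pole, where the ventral subiculum lies, was removed before the division, and the study grants that some subicular tissue may have remained. By length, the dorsal part was the smaller and the ventral part the larger. The mice were male according to the study. Because the tissue was precipitated in bulk, fewer cells of a type and less RNA per cell cannot be told apart.

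Rab proteins cycle between a GTP-bound form, which sits on a membrane and recruits effectors, and a GDP-bound form, which a GDP dissociation inhibitor holds in the cytosol. Exchange factors switch them on, GTPase-activating proteins switch them off, and each Rab marks its own compartment, from the endoplasmic reticulum and Golgi to endosomes, lysosomes and secretory vesicles. In neurons, Rab3 and Rab27b are attached to synaptic and dense-core vesicles, and mossy cells are the glutamatergic hilar neurons whose axons reach the granule cells along the length of the dentate gyrus.

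Of the 4 Rab3 genes, 3 were higher in ventral libraries and 1 was not, so their coding sequence around the phosphate-binding loop is shown, from the GENCODE transcripts of GRCm38, to make plain how far apart the messages are that the counts separate. Each stretch is 90 bases, 5′ to 3′ on the coding strand, within the second exon, and capitals mark the 25 positions at which the 4 genes are not all alike. The Rab3a stretch lies at chr8:70755910-70755999 on the plus strand, Rab3b at chr4:108890362-108890451 on the plus strand, Rab3c at chr13:110260563-110260652 on the minus strand and Rab3d at chr9:21915789-21915878 on the minus strand.
Rab3a: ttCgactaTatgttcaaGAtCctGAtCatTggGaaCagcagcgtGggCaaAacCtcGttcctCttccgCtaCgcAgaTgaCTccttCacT
Rab3b: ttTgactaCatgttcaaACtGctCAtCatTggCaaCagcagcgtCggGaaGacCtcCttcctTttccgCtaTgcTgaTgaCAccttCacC
Rab3c: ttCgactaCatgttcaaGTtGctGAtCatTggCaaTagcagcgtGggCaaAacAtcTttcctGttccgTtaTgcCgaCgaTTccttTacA
Rab3d: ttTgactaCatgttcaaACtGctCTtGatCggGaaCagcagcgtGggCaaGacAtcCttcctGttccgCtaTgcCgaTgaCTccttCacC
Over 450 coding bases from the start of the loop, identity between pairs ran from 78 to 82.9%. The longest run of identical coding bases in any pair was 33, in Rab3b and Rab3d, against reads of 50 bases. Among the coding sequences of all 59 members, 0 pairs shared an exact run of 50 bases. Genes outside the members were not part of that count. Of the 50-base stretches of the longest Rab9 transcript, 7.87% also occur in Rab9b-ps1. For Rab11b it was 14%, in Rab11b-ps2 and other genes.

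More Rab genes were higher in the ventral than in the dorsal libraries. At an adjusted p below 0.05 (edgeR's quasi-likelihood test, Benjamini-Hochberg over all 16806 genes), 14 of the 52 tested members were higher in ventral libraries, 26.9% of them beside 14.6% of all genes tested. In the dorsal direction 3 members passed, 5.77% beside 19.0% of all genes. A gene was called where the ratio of mean CPM plus 1 also exceeded 0.58 on the log2 scale, and 8 members were called higher in ventral (15.4%, beside 9.85% of all genes) and 1 higher in dorsal (1.92%, beside 15.7%). For 12 members all 5 ventral libraries were above all 5 dorsal ones (23.1%, beside 8.36% of all genes), and for 2 members all dorsal libraries were above all ventral ones (3.85%, beside 9.81%). Of the 13549 protein-coding genes tested, 16.1% and 15.4% passed in the ventral and dorsal direction, 10.3% and 11.4% were called, and 9.58% and 8.5% did not overlap.

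The log2 fold change, dorsal over ventral, was negative for 38 of the 52 tested members and positive for 14. Over the 16806 genes tested it was negative for 8464 and positive for 8342. Its median was -0.25, beside -0.0044 over all genes tested and -0.041 over protein-coding genes. Summed over the 59 members, Rab mRNA came to 11552 ± 779 CPM in the dorsal group against 14630 ± 985 CPM in the ventral group (SD, n = 5), and the ranges, 10662 to 12697 and 13354 to 15424 CPM, did not overlap. In TPM, which divides each gene's counts by its exonic length before scaling, the sums were 11277 ± 918 and 13095 ± 1328 TPM and the ranges overlapped. In the plot of fold changes by role, members higher in ventral are found among the synaptic, endosomal, endoplasmic reticulum and Golgi groups.

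**Figure D1:**
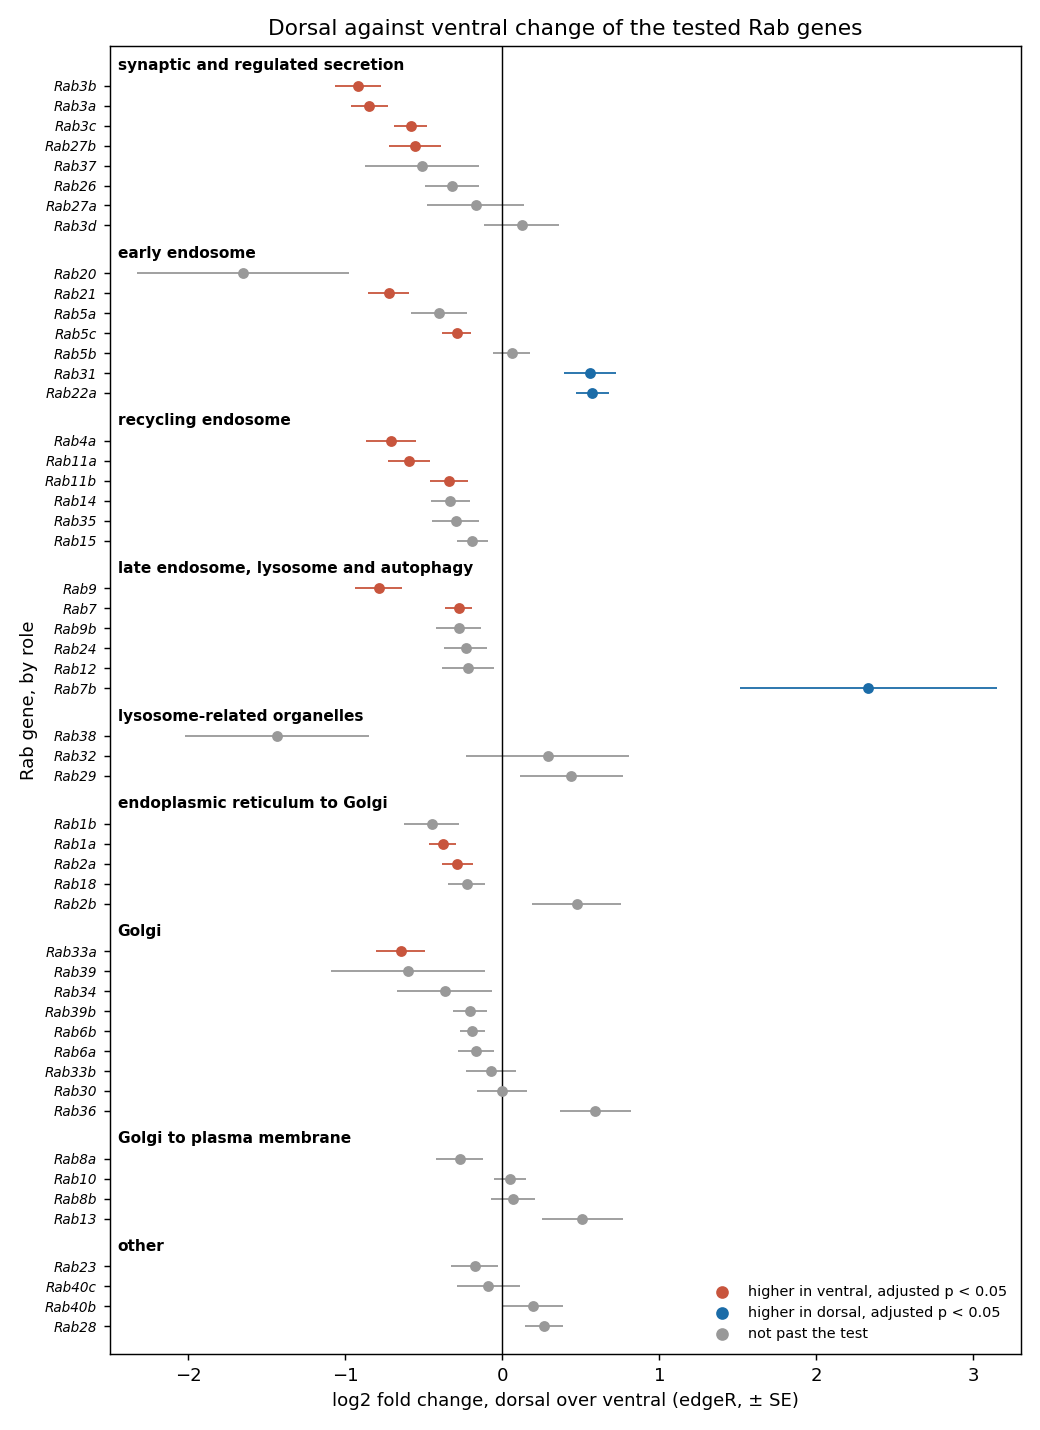
The x axis gives the log2 fold change, dorsal over ventral, with its standard error for the 52 tested Rab genes on the y axis, grouped by role; 5 dorsal and 5 ventral libraries. Coloured points mark the 14 members higher in ventral and the 3 higher in dorsal libraries at an adjusted p below 0.05, and 38 of the 52 points lie to the left of 0.

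Library measures moved with the groups. Counts on genes ranged from 11138676 to 20594364 per library and overlapped between groups, so that 3 counts, taken as the floor, corresponded to 0.146 to 0.269 CPM (counting error only). Read pairs on no gene made up 27.01 ± 5.09% of the pairs in the dorsal and 14.4 ± 2.997% in the ventral group (SD, n = 5). Mitochondrially encoded mRNA was at 2962 ± 315 and 789 ± 306 CPM. The summed markers of oligodendrocytes were at 3075 ± 174 against 1408 ± 374 CPM, and those of astrocytes at 2129.9 ± 109 against 1218 ± 221 CPM. All 4 measures were higher in every dorsal library than in any ventral one (two-sided exact permutation test p = 0.00794 for each, the smallest that 5 against 5 libraries can give). Of the 10 oligodendrocyte markers 6 were higher in dorsal and none in ventral libraries at the adjusted p, and of the 8 astrocyte markers 4 were higher in dorsal and 2 in ventral. The astrocyte sum was mostly Slc1a2, at 1771 ± 80.4 against 868 ± 161 CPM, and its difference rests largely on that gene. The 2 astrocyte markers higher in ventral were Aldoc (133 ± 16.7 against 195 ± 30.7 CPM) and Aldh1l1 (1.17 ± 0.899 against 4.15 ± 1.67 CPM). The oligodendrocyte sums ranged from 2802 to 3284 and from 1048 to 2003 CPM, the astrocyte sums from 1976 to 2245 and from 855 to 1454 CPM. All 10 interneuron markers were detected, their sum was 3989 ± 508 against 4686 ± 585 CPM (exact p = 0.0873), and 5 of the 10 were higher in ventral at the adjusted p. Of the 8 mossy cell markers, 3 were higher in dorsal and 2 in ventral libraries, and their sum was 2054 ± 76.2 against 2113 ± 128 CPM. That sum adds large opposite differences, chiefly Gria2 (1141 ± 97.9 against 649 ± 72.8 CPM) and Calb2 (65.0 ± 9.30 against 615 ± 94.4 CPM). It therefore does not measure mossy cell content. Drd2 itself, the driver of the Cre line, was at 28.1 ± 3.95 and 20.7 ± 4.36 CPM. Summed microglial (32.4 ± 6.31 against 29.6 ± 9.63 CPM), endothelial (20.7 ± 9.097 against 32.8 ± 16.2 CPM), granule cell (911 ± 35.2 against 759.8 ± 116 CPM) and CA pyramidal markers (674 ± 64.1 against 759 ± 143 CPM) overlapped between groups, and of these 4 sums only the granule cell one was below 0.05 (exact permutation test, p = 0.0476). The part of these measures in the Rab differences was not tested.

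Of the 8 members of synaptic and regulated secretion, 4 were higher in ventral libraries and none in dorsal ones, and their median log2 fold change was -0.53. Over all genes tested, 14.6% were higher in ventral and 19.0% in dorsal libraries, and the counts of the other roles below stand beside the same shares. Rab3a, the main Rab of synaptic vesicles (chr8:70754679-70758677, plus strand), was at 364, 514, 416, 432 and 473 CPM in dorsal libraries 1 to 5 and at 989, 771, 782, 735 and 684 CPM in ventral libraries 1 to 5. Every ventral library was above every dorsal one, and the level was 1.799-fold higher in ventral (log2 fold change -0.85 ± 0.12 (SE), adjusted p = 0.000228). Rab3b, a close relative found on synaptic vesicles of some neurons (chr4:108879063-108943324, plus strand), was at 97.8, 77.4, 102, 104 and 99.2 CPM in the dorsal and 210.5, 206, 118, 181 and 188 CPM in the ventral libraries. The groups did not overlap although ventral library 3 was well below the other ventral ones, and the ventral level was 1.89-fold higher (log2 fold change -0.92 ± 0.15 (SE), adjusted p = 0.000603). A stretch of 8.99% of the Rab3b exonic length overlaps the antisense gene 8030443G20Rik, and the strand setting of the counting is not given in the sources used here.

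Rab3c, which is also carried by synaptic vesicles (chr13:110054187-110280996, minus strand), had 2169.5, 1596, 1515, 1806 and 1676 CPM in dorsal libraries 1 to 5 and 2666, 2917, 2838, 2316 and 2388 CPM in ventral libraries 1 to 5. All ventral libraries were higher, by 1.498-fold on average (log2 fold change -0.58 ± 0.11 (SE), adjusted p = 0.00128). The ratio was close to the fold threshold, and the call was lost, with the test still passed, under DESeq2's size factors (adjusted p = 0.00212). The same held for upper-quartile factors, total counts, the stricter filter and protein-coding genes alone. It also held without dorsal library 2, 3 or 5 or ventral library 1, 2 or 3 (log2 fold change -0.58 to -0.53). Rab3d, better known from exocrine secretory granules, was low, at 8.08, 4.604, 6.73, 7.79 and 8.23 CPM in the dorsal and 5.65, 6.06, 5.31, 5.999 and 8.43 CPM in the ventral libraries. Its groups overlapped and it did not pass the test (log2 fold change 0.12 ± 0.24 (SE), adjusted p = 0.721).

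Rab27b, which acts in the exocytosis of dense-core and secretory vesicles, was at 227, 184, 136, 201 and 175 CPM in dorsal libraries 1 to 5 and at 352, 317, 259, 231 and 199 CPM in ventral libraries 1 to 5. The highest dorsal library was above the lowest ventral one, and the mean was 1.47-fold higher in ventral (log2 fold change -0.56 ± 0.16 (SE), adjusted p = 0.0192). Leaving out each library in turn gave log2 fold changes of -0.65 to -0.44 and adjusted p-values up to 0.0495. Rab27a, which moves melanosomes and lytic granules in other tissues, had 8.17, 5.12, 6.39, 6.17 and 6.196 CPM in the dorsal and 5.59, 14.8, 5.56, 5.18 and 6.22 CPM in the ventral libraries. Ventral library 2 stood above the rest, the groups overlapped, and the test was not passed (log2 fold change -0.17 ± 0.31 (SE), adjusted p = 0.704), with a log2 fold change of 0.15 without that library. Rab26, of secretory granules and synaptic vesicle turnover, was at 14.4 to 19.9 CPM in the dorsal and 17.8 to 28.999 CPM in the ventral libraries (log2 fold change -0.32 ± 0.17, adjusted p = 0.165). Rab37, a secretory granule Rab, was at 1.36 to 7.26 CPM in the dorsal and 4.26 to 6.55 CPM in the ventral libraries (log2 fold change -0.51 ± 0.36, adjusted p = 0.2897).

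**Figure D2:**
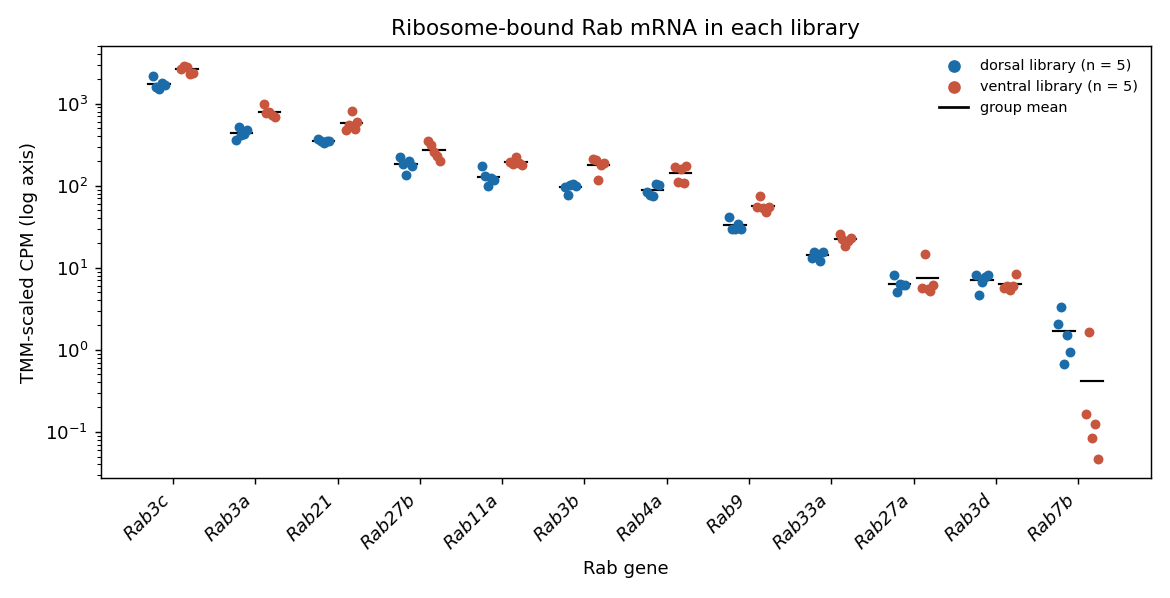
TMM-scaled CPM on a log axis (y) for the called members and the tested Rab3 and Rab27 members (x), 1 point per library with 5 dorsal and 5 ventral libraries, bars at the group means. The ventral points of Rab3a, Rab3b, Rab3c, Rab21, Rab11a, Rab4a, Rab9 and Rab33a all lie above the dorsal points, and those of Rab27a, Rab27b, Rab3d and Rab7b overlap with them.

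Rab3a and Rab3c held most of the Rab3 message in both groups. Per length, Rab3a made up 53.1 ± 5.94% of the summed Rab3 TPM in dorsal and 56.6 ± 2.95% in the ventral ones (SD, n = 5). Rab3c held 39.1 ± 5.49% and 34.9 ± 3.05%, Rab3b 7.35 ± 1.02% and 8.22 ± 1.64%, and Rab3d 0.455 ± 0.0977% and 0.244 ± 0.0683%. The ranges of these shares overlapped between dorsal and ventral libraries for all 4 genes. Of the summed Rab27 TPM, Rab27b made up 91.2 ± 1.65% in dorsal and 93.02 ± 2.8003% in ventral libraries.

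The count ratio of related members within a library, which does not depend on how libraries are scaled, was compared for 22 pairs, and 0 pairs passed an adjusted p of 0.05 (two-sided exact permutation test of the group means, Benjamini-Hochberg over the pairs; smallest adjusted p = 0.116). The smallest p that 5 against 5 libraries allow is 0.00794, so that several pairs at that value would have been needed. Rab3b over Rab3d was the one pair whose groups did not overlap, with mean log2 ratios of 3.78 ± 0.21 in the dorsal and 4.84 ± 0.34 in the ventral group (SD, n = 5; exact p = 0.00794, adjusted p = 0.116). Rab3a over Rab3d (5.98 ± 0.49 against 6.98 ± 0.41) and Rab3c over Rab3d (7.97 ± 0.30 against 8.72 ± 0.36) lay the same way, with overlapping groups and the same adjusted p of 0.116. These ratios all share the low Rab3d, with 63 to 179 counts per library, as denominator, so they are not separate observations. Rab3a over Rab3b was at 2.20 ± 0.33 in the dorsal and 2.15 ± 0.35 in the ventral group, a difference smaller than the spread in either group. The largest difference in mean log2 ratio, -3.38 for Rab7 over Rab7b, rests on counts of Rab7b as low as 1.

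**Figure D3:**
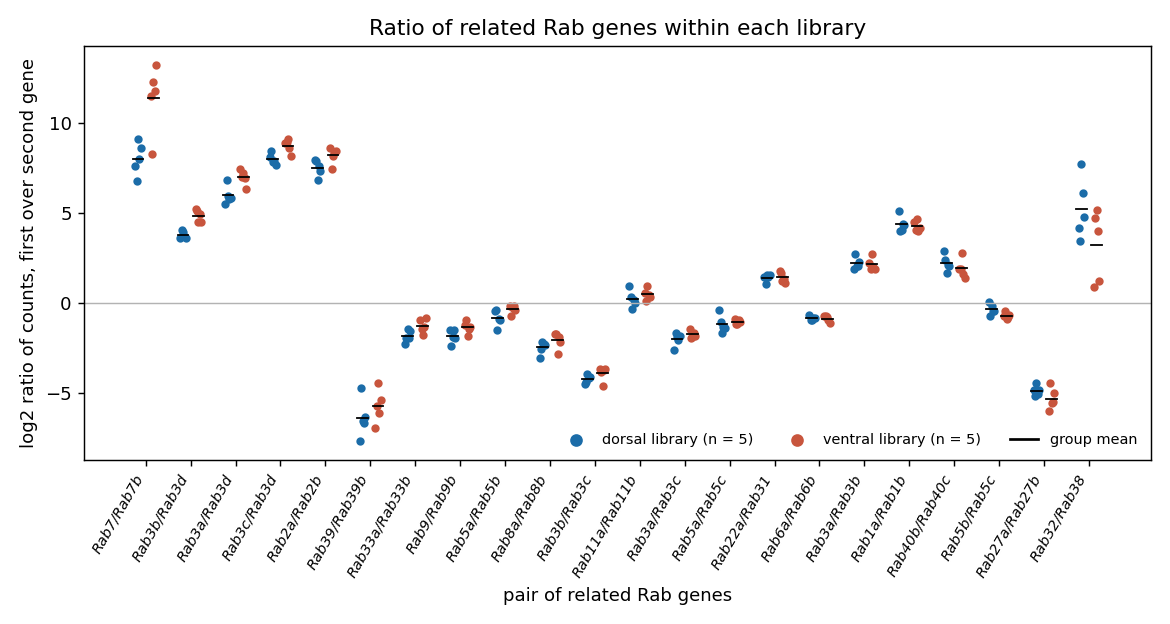
The log2 ratio of counts, first over second gene, in each of 5 dorsal and 5 ventral libraries (y) for 22 pairs of related Rab genes (x), with bars at the group means. The groups overlap in every pair except Rab3b/Rab3d, where the ventral libraries all lie above the dorsal ones.

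The 7 members of the early endosome moved in both directions, with 2 higher in ventral and 2 higher in dorsal libraries. Rab21, which regulates the endocytosis of integrins (chr10:115287084-115315594, minus strand), was at 375, 354, 328, 355 and 355 CPM in dorsal libraries 1 to 5 and at 478, 544, 812, 486 and 599 CPM in ventral libraries 1 to 5. The dorsal libraries lay close together, ventral library 3 was the highest, and the groups did not overlap, with a 1.65-fold higher mean in ventral (log2 fold change -0.72 ± 0.13 (SE), adjusted p = 0.00132). Without ventral library 3, the log2 fold change was -0.58 (adjusted p = 0.000763) and the call was lost on the fold threshold. Rab5c, one of the 3 Rab5 forms that drive fusion of early endosomes, was at 90.7 to 109 CPM in the dorsal and 123 to 128 CPM in the ventral libraries, without overlap, and was 1.22-fold higher in ventral (log2 fold change -0.29 ± 0.094 (SE), adjusted p = 0.02901). It no longer passed without dorsal library 3 or 5 or ventral library 4 or 5 (log2 fold change -0.29 to -0.26, adjusted p = 0.0534 to 0.0733). The other forms did not pass the test, Rab5a with a log2 fold change of -0.40 ± 0.18 (adjusted p = 0.0886) and Rab5b with 0.061 ± 0.12 (adjusted p = 0.717).

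Rab22a and Rab31 (also called Rab22b), related GTPases of early endosomes and of sorting between endosome and Golgi, were the members that were higher in dorsal libraries at more than trace level in the main fit. Rab22a was at 81.4 to 105 CPM in the dorsal and 58.9 to 66.5 CPM in the ventral libraries, 1.49-fold higher in dorsal (log2 fold change 0.57 ± 0.10 (SE), adjusted p = 0.00125). Rab31 was at 31.3 to 39.6 CPM in the dorsal and 16.9 to 30.02 CPM in the ventral libraries, 1.47-fold higher in dorsal (log2 fold change 0.56 ± 0.17 (SE), adjusted p = 0.021005). In both genes all dorsal libraries were above all ventral ones, and neither reached the fold threshold of a call in the main fit. Rab22a was called higher in dorsal with DESeq2's size factors, upper-quartile factors, the stricter filter or protein-coding genes alone (log2 fold change 0.596 to 0.613). It was also called without dorsal library 2 or 5 or ventral library 3. Rab31 was called with upper-quartile factors (0.596) and without dorsal library 3 or 5 or ventral library 3 or 5. The summed oligodendrocyte and astrocyte markers were higher in the same libraries, by the values above, the astrocyte sum mostly through Slc1a2. The part of these markers in the differences was not tested. Rab20, which acts on early endosomes and phagosomes, was scattered from 0.627 to 1.95 CPM in dorsal and from 0.527 to 9.44 CPM in ventral libraries and did not pass (log2 fold change -1.65 ± 0.68 (SE), adjusted p = 0.0718).

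All 6 tested members of the recycling endosome had negative log2 fold changes, and 3 were higher in ventral libraries. Rab4a, of the fast recycling route (chr8:123805985-123835287, plus strand), was at 83.95, 76.1, 75.6, 104 and 103 CPM in dorsal libraries 1 to 5 and at 169, 112, 159, 109 and 173 CPM in ventral libraries 1 to 5. The groups did not overlap, although the higher dorsal libraries came within a few CPM of the lower ventral ones, and the mean was 1.64-fold higher in ventral (log2 fold change -0.71 ± 0.16 (SE), adjusted p = 0.00448). Rab11a, of the slow recycling route (chr9:64715299-64737758, minus strand), had 173, 131, 98.7, 125 and 117 CPM in the dorsal and 197, 183, 223, 188 and 181 CPM in the ventral libraries. Dorsal library 1 was the highest of its group and still below every ventral library, for a 1.51-fold higher ventral mean (log2 fold change -0.60 ± 0.13 (SE), adjusted p = 0.00458). Its ratio was near the fold threshold, and the call was lost, with the test still passed, under DESeq2's size factors (adjusted p = 0.00677). The same held for upper-quartile factors, the stricter filter and protein-coding genes alone. It also held without dorsal library 3, 4 or 5 or ventral library 3 (log2 fold change -0.58 to -0.51). Rab11b, a brain-enriched relative of Rab11a, was at 89.7 to 125 CPM in the dorsal and 115 to 167 CPM in the ventral libraries, overlapped between groups and was 1.27-fold higher in ventral (log2 fold change -0.34 ± 0.12 (SE), adjusted p = 0.0415). It no longer passed without dorsal library 1, 2, 4 or 5 or ventral library 1, 2, 4 or 5 (log2 fold change -0.36 to -0.27, adjusted p = 0.0521 to 0.087), nor with DESeq2's size factors (adjusted p = 0.0571).

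The 3 other recycling members did not pass. Rab14, which links endosomes and the Golgi, stood just at the threshold (log2 fold change -0.33 ± 0.12, adjusted p = 0.05001), Rab35, of recycling to the plasma membrane, was at -0.30 ± 0.15 (adjusted p = 0.134), and Rab15, a brain-enriched endosomal Rab, at -0.19 ± 0.10 (adjusted p = 0.144), though all its ventral libraries lay above the dorsal ones (85.7 to 102 CPM in the dorsal and 104 to 119 CPM in the ventral libraries). Rab4b, Rab17 and Rab25 were below the expression filter, and no library reached 1 CPM of any of them. Rab4b had 0, 6, 1, 1 and 1 counts in the dorsal and 1, 1, 1, 6 and 0 in the ventral libraries, and 64.97% of its exonic length overlaps another gene. Rab17 and Rab25, of polarised epithelia, were at 0 counts in 8 and 9 of the 10 libraries and at 1 count in the others.

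Among the late endosomal, lysosomal and autophagic members, Rab9 and Rab7 were higher in ventral libraries and Rab7b in dorsal ones. Rab9, which returns mannose 6-phosphate receptors from late endosomes to the Golgi (chrX:166457253-166479867, minus strand), was at 41.3, 29.4, 29.998, 34.05 and 29.4 CPM in dorsal libraries 1 to 5 and at 54.5, 73.99, 53.1, 47.4 and 54.4 CPM in ventral libraries 1 to 5. The groups did not overlap, ventral library 2 was the highest, and the mean was 1.73-fold higher in ventral (log2 fold change -0.79 ± 0.15 (SE), adjusted p = 0.001701). Rab7, the general Rab of late endosomes and lysosomes, was at 355 to 400.4 CPM in the dorsal and 409.8 to 505 CPM in the ventral libraries, again without overlap, but only 1.21-fold higher in ventral (log2 fold change -0.28 ± 0.085 (SE), adjusted p = 0.0224). Of the 50-base stretches of the longest Rab7 transcript, 16.2% also occur in another gene, chiefly the pseudogene Rab7-ps1, and Rab7 no longer passed without dorsal library 3, 4 or 5 (log2 fold change -0.28 to -0.26, adjusted p = 0.0527 to 0.0692).

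Rab7b, a late endosome to Golgi Rab (chr1:131688695-131715439, plus strand), was at trace level, with 22, 51, 10, 25 and 12 counts in dorsal libraries 1 to 5 and 3, 19, 1, 2 and 1 counts in ventral libraries 1 to 5. These are 2.07, 3.31, 0.6802, 1.499 and 0.941 CPM in the dorsal and 0.166, 1.67, 0.0843, 0.126 and 0.0471 CPM in the ventral libraries, so that 4 ventral libraries were at or below the 3 counts of the floor while ventral library 2 overlapped with the dorsal group. It was called higher in dorsal (log2 fold change 2.33 ± 0.82 (SE), adjusted p = 0.0342), with an adjusted p of 0.0698 by DESeq2 and 0.104 with the dispersions of edgeR 3, and the log2 fold change was 3.93 without ventral library 2. It no longer passed without dorsal library 2 or 4 or ventral library 1, 3, 4 or 5 (log2 fold change 1.90 to 2.39, adjusted p = 0.0546 to 0.0958). Rab9b was at -0.28 ± 0.14 on the log2 scale (adjusted p = 0.151), Rab12, of receptor degradation and autophagy, at -0.22 ± 0.16 (adjusted p = 0.327) and Rab24, linked to autophagosomes, at -0.23 ± 0.14 (adjusted p = 0.204). Rab24 shares 62.4% of its exonic length with Prelid1, so that its counts are uncertain.

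Of the 3 members tied to lysosome-related organelles, none passed the test. Rab38 and Rab32, which act together in the making of melanosomes, were low. Rab38 was at 0.06802 to 1.03 CPM in the dorsal and 0.253 to 2.27 CPM in the ventral libraries (log2 fold change -1.43 ± 0.58 (SE), adjusted p = 0.0646) and Rab32 at 6.22 to 20.6 CPM in the dorsal and 2.78 to 32.8 CPM in the ventral libraries (log2 fold change 0.29 ± 0.52, adjusted p = 0.697). Rab29, which recruits the kinase Lrrk2 to membranes, had a log2 fold change of 0.44 ± 0.33 (adjusted p = 0.315).

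The 5 Rab messages with the highest mean TPM over all libraries were Rab2a, Rab6b, Rab1a, Rab3a and Rab6a, of which Rab3a is the synaptic one and the others act in the early secretory pathway and the Golgi. Within groups the order was not the same, since Rab6a was above Rab3a in the dorsal mean and Rab3a above Rab1a in the ventral mean. Rab2a, which acts between endoplasmic reticulum and Golgi, reached 2423 ± 316 TPM in the dorsal and 2709.7 ± 443 TPM in the ventral libraries (SD, n = 5). It was at 1401, 1134, 1279, 1439 and 1359 CPM in dorsal libraries 1 to 5 and at 1721, 1438, 1876, 1372 and 1654 CPM in ventral libraries 1 to 5. Dorsal and ventral libraries overlapped, and the 1.22-fold higher ventral mean passed narrowly (log2 fold change -0.29 ± 0.10 (SE), adjusted p = 0.0409). It did not pass without dorsal library 2, 3, 4 or 5 or ventral library 1, 3 or 5 (log2 fold change -0.31 to -0.23, adjusted p = 0.0547 to 0.0973), nor with DESeq2's size factors (adjusted p = 0.0665). Rab1a, needed for transport from the endoplasmic reticulum to the Golgi, reached 1036 ± 90.7 TPM in the dorsal and 1235 ± 112 TPM in the ventral libraries. Its values were 1087, 976, 910.2, 1048 and 1028 CPM in the dorsal and 1353, 1465, 1340, 1255 and 1161 CPM in the ventral libraries. The groups did not overlap, and Rab1a was 1.301-fold higher in ventral (log2 fold change -0.38 ± 0.085 (SE), adjusted p = 0.00466).

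Rab6b, the brain form of the Golgi Rab6, reached 1284 ± 100.04 TPM in the dorsal and 1345 ± 174 TPM in the ventral libraries. It was at 1762, 1602, 1597, 1673 and 1645 CPM in dorsal libraries 1 to 5 and at 2061, 1961, 1619.5, 1858 and 1954 CPM in ventral libraries 1 to 5. Ventral library 3 fell within the dorsal range, and the test was not passed (log2 fold change -0.19 ± 0.08 (SE), adjusted p = 0.0783). Rab6a, the widely expressed form, reached 982 ± 142 TPM in the dorsal and 1011 ± 169 TPM in the ventral libraries. It had 1119.7, 847, 841, 958 and 922 CPM in the dorsal and 1249, 1203, 938, 977 and 905 CPM in the ventral libraries, which overlapped (log2 fold change -0.17 ± 0.11 (SE), adjusted p = 0.265). In the Rab6a gene, 18.99% of the exonic length overlaps Mrpl48 on the other strand. In TPM, Rab3a was at 767 ± 74.2 in the dorsal and 1273 ± 215 in the ventral libraries. The means of Rab6b, Rab3a and Rab1a in the ventral libraries, and those of Rab1a and Rab6a in the dorsal libraries, differed by less than 1 SD.

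Rab33a, a Golgi Rab with a role in axonal vesicle transport (chrX:48519285-48530232, plus strand), was the called member among the 9 tested Golgi genes. It was at 13.1, 15.5, 14.8, 12.2 and 15.5 CPM in dorsal libraries 1 to 5 and at 25.8, 22.1, 18.5, 21.3 and 22.9 CPM in ventral libraries 1 to 5. Every ventral library was above every dorsal one, by 1.57-fold on average (log2 fold change -0.65 ± 0.15 (SE), adjusted p = 0.00633). The call, but not the test, was lost under DESeq2's size factors and without dorsal library 1 or 4 or ventral library 1 (log2 fold change -0.62 to -0.59). Its relative Rab33b did not pass (log2 fold change -0.074 ± 0.16, adjusted p = 0.753). The log2 fold changes of the other Golgi members were -0.21 ± 0.11 for Rab39b, a gene of X-linked intellectual disability, -0.60 ± 0.49 for Rab39, -0.37 ± 0.30 for Rab34, which acts in ciliogenesis, 0.59 ± 0.23 for Rab36 and -0.0019 ± 0.16 for Rab30, with adjusted p-values from 0.0579 to 0.994, and all 5 overlapped between groups. Rab36 was called higher in dorsal with DESeq2's size factors (adjusted p = 0.0483), upper-quartile factors (0.0472) or protein-coding genes alone (0.0489). So it was with the GC and length correction (log2 fold change 0.658, adjusted p = 0.0222) and without dorsal library 1 or 2. With the replicate number as a block it did not pass (adjusted p = 0.114). Rab19 was below the filter, with 1 count in each of 2 dorsal libraries and 0 in the others.

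The remaining members of the secretory route did not pass the test. Between endoplasmic reticulum and Golgi, Rab1b was at -0.45 ± 0.17 on the log2 scale (adjusted p = 0.0606), Rab18, of the endoplasmic reticulum and lipid droplets, at -0.23 ± 0.12 (adjusted p = 0.1497) and Rab2b at 0.48 ± 0.28 (adjusted p = 0.208). Rab2b shares 63.99% of its exonic length with other genes, Tox4 among them. From the Golgi to the plasma membrane, Rab8a had a log2 fold change of -0.27 ± 0.15, Rab8b of 0.068 ± 0.14, Rab10 of 0.048 ± 0.10 and Rab13 of 0.51 ± 0.26, with adjusted p-values from 0.141 to 0.745. Rab8 and Rab10 carry vesicles to the cell surface and to cilia, and Rab13 serves cell junctions. Of the unclassified members, Rab23, an inhibitor of hedgehog signalling, was at -0.18 ± 0.15, Rab28 at 0.27 ± 0.12, Rab40b at 0.19 ± 0.19 and Rab40c at -0.089 ± 0.20, with adjusted p-values from 0.102 to 0.762.

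Another 3 members were not tested. Rab42 reached 1.41 CPM in 1 ventral library and lay below 1 CPM in the other 9. Rab43 had 0, 4, 11, 4 and 6 counts in the dorsal and 0, 0, 0, 3 and 4 in the ventral libraries, and 75.3% of its exonic length overlaps another gene. Rab44 had 1 count in a single dorsal library.

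The size of many Rab differences changed with a correction for base composition and length. The correction of each library for GC content and exonic length moved the median log2 fold change of all genes tested from -0.0044 to -0.16, and the ventral share of all calls from 38.6% to 57.6%. The median of the members moved with it, from -0.25 to -0.40, so that relative to the median of all genes it was -0.25 before and -0.25 after the correction. With it, 24 members were higher in ventral (46.2%, beside 23.9% of all genes) and 3 in dorsal libraries (5.77%, beside 14.8%). All 9 called members kept their calls with it. The same GC and length correction fitted to protein-coding genes alone was an alternative chosen after seeing the data. It ended the calls of Rab4a (log2 fold change -0.57) and Rab33a (-0.44, adjusted p = 0.0582). With the GC and length correction of all genes, Rab5c and Rab31 no longer passed, and 12 further members did. The values of Rab27b went from -0.56 to -1.35 (GC content of the longest transcript 37.9%), those of Rab11a from -0.60 to -1.22 (39.5%) and those of Rab3a from -0.85 to -0.87 (55.01%). Rab28, with the lowest GC content of the tested members (36.8%), turned from 0.27 to -0.73 (adjusted p = 0.000761), and Rab8b, Rab10 and Rab5b also changed sign. Rab30 went from -0.0019 to -0.75 (adjusted p = 0.00345). These shifts depended on the genes fitted. With the correction fitted to protein-coding genes alone, Rab27b was at -0.855, Rab11a at -0.636 and Rab3a at -0.72. Rab28 was then at 0.0896 (adjusted p = 0.611) and Rab30 at -0.265 (adjusted p = 0.205). Rab5b (0.0199) and Rab10 (0.0443) kept their sign, and Rab8b was at -0.00968.

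**Figure D4:**
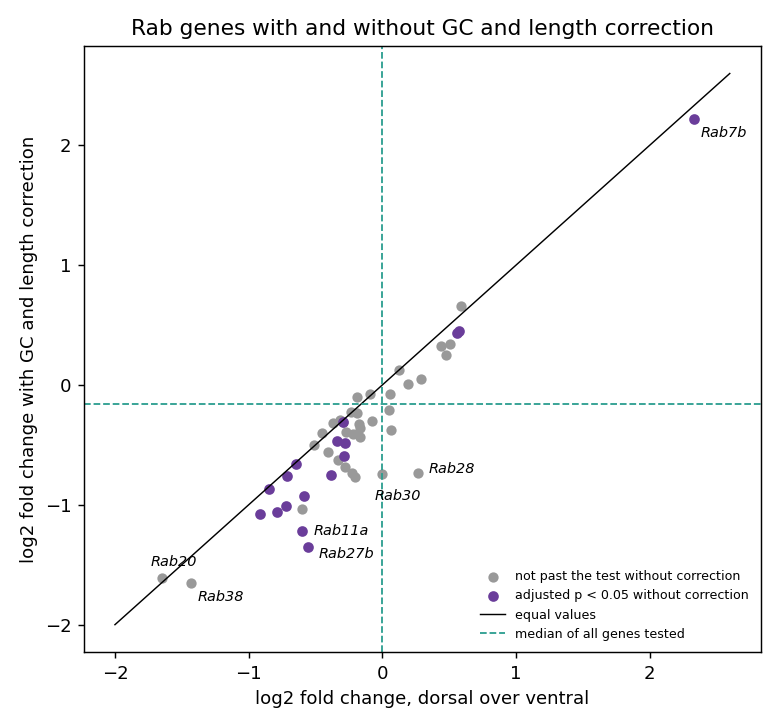
Each point is 1 of the 52 tested Rab genes, with its log2 fold change, dorsal over ventral, on the x axis and the value after correction for GC content and length on the y axis. Dashed lines mark the median of all genes tested on each axis (-0.0044 and -0.16), and Rab28, Rab30, Rab27b and Rab11a lie well below the line of equal values.

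The regulators and effectors of Rab proteins were followed as 7 lists of 142 genes, of which 132 were tested. In these lists, 19 genes were higher in ventral and 9 in dorsal libraries, which is 14.4% and 6.82% of those tested, beside 14.6% and 19.0% of all genes. Of the 132 tested, 8 were called in ventral and 4 in dorsal libraries, smaller shares than the 9.85% and 15.7% of all genes. The median log2 fold change of the partner genes was -0.10. All 8 genes of the GDP dissociation inhibitors and the escort and prenylation machinery had negative log2 fold changes, with a median of -0.35. Gdi2, an inhibitor that extracts Rab proteins from membranes, was at 206 ± 16.03 against 274 ± 31.2 CPM in dorsal against ventral libraries (SD, n = 5; log2 fold change -0.41 ± 0.10, adjusted p = 0.00754). Rabggtb, the catalytic subunit of the enzyme that prenylates Rab proteins, was at 113 ± 17.5 against 153 ± 5.94 CPM (-0.45 ± 0.11, adjusted p = 0.00829), chosen here after its value was seen. Chm, the escort protein Rep1, did not pass (100 ± 9.33 against 105 ± 9.48 CPM, log2 fold change -0.069 ± 0.11, adjusted p = 0.646). With the GC and length correction, Chm was called higher in ventral (log2 fold change -0.98, adjusted p = 8.38e-05). Gdi2 (-0.66, adjusted p = 0.000375) and Rabggtb (-0.75, adjusted p = 0.000519) were called as well. The median of all genes tested was then -0.16. With the correction fitted to protein-coding genes alone, Gdi2 was still called (-0.61, adjusted p = 0.000553). Rabggtb passed the test there without a call (-0.397, adjusted p = 0.0119).

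Among 34 tested exchange factors, 3 were higher in ventral and 2 in dorsal libraries (8.82% and 5.88%, beside 14.6% and 19.0% of all genes). Rabgef1, which activates Rab5 and Rab21, was called higher in ventral (17.9 ± 1.54 against 30.1 ± 0.3703 CPM; log2 fold change -0.75 ± 0.13, adjusted p = 0.000923). So was Rab3gap1 (24.9 ± 2.32 against 38.3 ± 4.24 CPM; -0.62 ± 0.13, adjusted p = 0.00348), listed here for its exchange activity on Rab18 but named for the inactivation of Rab3. Its call, but not the test, was lost without dorsal library 3 or 5 or ventral library 3 (log2 fold change -0.58 to -0.57), and with DESeq2's size factors, upper-quartile factors, the stricter filter or protein-coding genes alone (log2 fold change -0.60 to -0.58). Its partner Rab3gap2 did not pass (27.6 ± 6.61 against 29.5 ± 2.83 CPM; -0.10 ± 0.17, adjusted p = 0.685), nor did Madd, the exchange factor of Rab3 and Rab27 (121 ± 20.97 against 147 ± 24.3 CPM; -0.28 ± 0.15, adjusted p = 0.155). Among 38 tested GTPase-activating proteins, 6 were higher in ventral and 1 in dorsal libraries (15.8% and 2.63%, beside the same shares of all genes). The called ones were Tbc1d10b (42.7 ± 11.4 against 96.1 ± 48.4 CPM; -1.17 ± 0.29, adjusted p = 0.00821), Tbc1d8 (4.23 ± 0.775 against 8.86 ± 1.91 CPM; -1.10 ± 0.24, adjusted p = 0.00422) and Tbc1d17 (5.79 ± 2.68 against 12.4 ± 2.59 CPM; -1.05 ± 0.29, adjusted p = 0.0129) in ventral and Usp6nl, a GTPase-activating protein of Rab5, in dorsal (62.96 ± 17.1 against 36.8 ± 3.65 CPM; 0.76 ± 0.18, adjusted p = 0.00546).

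Of 10 tested effectors of Rab3 and Rab27, 2 were higher in ventral and 1 in dorsal libraries (20% and 10%, beside 14.6% and 19.0% of all genes). Rims1, the active zone scaffold that binds Rab3, was at 217 ± 24.7 against 177 ± 23.7 CPM (log2 fold change 0.29 ± 0.11, adjusted p = 0.0616), and Rims2 at 120.5 ± 4.48 against 139 ± 15.5 CPM (-0.21 ± 0.10, adjusted p = 0.115), and neither passed the test. Rph3a, the rabphilin of synaptic vesicles, was higher in dorsal (348 ± 8.27 against 287 ± 40.9 CPM; 0.28 ± 0.10, adjusted p = 0.0476). That difference no longer passed without dorsal library 1, 2, 3, 4 or 5 or ventral library 1, 3, 4 or 5 (adjusted p = 0.0567 to 0.0991), nor with the replicate number as a block (adjusted p = 0.0547). Sytl5, a Rab27 effector, was called higher in ventral (3.604 ± 1.52 against 7.55 ± 2.55 CPM; -1.02 ± 0.32, adjusted p = 0.0243), though not without dorsal library 2, 4 or 5 or ventral library 4 (adjusted p = 0.0501 to 0.0562).

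Of 21 tested endosomal effectors, 3 were higher in ventral and 1 in dorsal libraries (14.3% and 4.76%, beside 14.6% and 19.0% of all genes). Among the former, Rilpl2, which binds phosphorylated Rab proteins, was called (3.67 ± 1.24 against 6.71 ± 1.26 CPM; log2 fold change -0.87 ± 0.27, adjusted p = 0.0239), but it did not pass without dorsal library 4 or 5 or ventral library 5 (adjusted p = 0.0541 to 0.0792). The dorsal one was the called Fyco1, a Rab7 effector of lysosome transport (38.5 ± 13.2 against 16.9 ± 6.904 CPM; 1.24 ± 0.29, adjusted p = 0.00637). Of 18 tested Golgi and exocytic effectors, 3 were higher in dorsal (16.7%, beside 19.0% of all genes) and none in ventral libraries. The recycling effector Micall1 was called (23.3 ± 8.58 against 14.8 ± 1.36 CPM; 0.69 ± 0.24, adjusted p = 0.0372) but did not pass without dorsal library 3, 4 or 5 or ventral library 1, 4 or 5 (adjusted p = 0.06 to 0.0964). Nor did it pass with the replicate number as a block (adjusted p = 0.0559) or with the dispersions of edgeR 3 (adjusted p = 0.0544). Of the kinases and the phosphatase of Rab proteins, Lrrk1 was called higher in dorsal at a low level (2.37 ± 0.7796 against 0.408 ± 0.122 CPM; 2.56 ± 0.42, adjusted p = 0.000303). Ppm1h, the phosphatase that removes the phosphate Lrrk2 places on Rab proteins, was called higher in ventral (118 ± 15.003 against 179 ± 11.5 CPM; -0.60 ± 0.11, adjusted p = 0.001104). The call, but not the test, was lost without dorsal library 3 or 5 or ventral library 1 (log2 fold change -0.59 to -0.55), and with DESeq2's size factors, upper-quartile factors, the stricter filter or protein-coding genes alone (log2 fold change -0.58 to -0.56). Lrrk2, chosen here after its value was seen, was also higher in ventral without a call (32.9 ± 5.93 against 45.2 ± 4.42 CPM; -0.46 ± 0.14, adjusted p = 0.0248), and did not pass without dorsal library 3, 4 or 5 or ventral library 5 (adjusted p = 0.0514 to 0.0779).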

How the data were processed

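RNA from 5 dorsal and 5 ventral TRAP precipitates was amplified with the Ovation V2 kit, made into TruSeq libraries and sequenced as paired ends of 50 bases. The deposited values are raw counts per Ensembl gene, which the authors made with STAR 2.5.2b and HTSeq 0.7.2 on GRCm38 according to the submitters' processing notes, without normalization or filter. The annotation release and the strand setting are not given in the sources used here. Summary lines that name no gene were left out of library sizes. Pairs on no feature made up 11.6 to 33.9% and ambiguous pairs 5.92 to 8.66% of all pairs listed. Groups and replicate numbers came from the sample titles. According to the study's methods the libraries of a group are separate pools of 5 mice, so p-values measure the spread between such pools. No 2 libraries of a group agreed within sampling noise, the chi-square over genes being at least 4.36 per degree of freedom.

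A quasi-likelihood model was fitted in edgeR 4.0.16 (R 4.3.3) to dorsal and ventral libraries after TMM scaling, on genes that exceeded 1 CPM in 2 or more libraries, using the dispersion estimates of edgeR 4. P-values were adjusted by Benjamini-Hochberg over the 16806 genes tested. A gene differed at an adjusted p below 0.05 and was called where the log2 ratio of mean CPM plus 1 also exceeded 0.58. The standard error was taken as the absolute log2 fold change over the root of F. TPM used the union of annotated exons. Symbols, positions, exonic length and GC content came from GENCODE M21 on GRCm38, which matched 54809 of the 54838 identifiers. DESeq2 1.42.0, other scalings, no filter and a stricter filter (above 1 CPM in 5 libraries), a likelihood-ratio test, protein-coding genes alone, a GC and length correction by smooth offsets (mgcv 1.9.3), the replicate number as a block and leaving out each library were tried as alternatives. The dispersions of edgeR 3 and a GC and length correction of protein-coding genes alone were added after seeing the data. The fit was tested on simulated data.

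The Rab members, their roles, the partner lists and the marker lists were chosen with earlier results of these data known. Library by library values were given for called members, for tested Rab3 and Rab27 members and for the 5 members highest in TPM, and of each partner list the called genes were named, at most 3 per direction, besides Gdi2, Chm, Rims1, Rims2, Rph3a, Madd, Rab3gap1, Rab3gap2 and 1 gene that is not reported here.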

Additional observations from a re-analysis of the deposited data

Results flagged for a closer look

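In 14 of the 104 groups examined (52 tested members in 2 groups of 5 libraries), 1 library stood apart from the other 4 by Dixon's criterion, a gap to the nearest library over 0.71 of the whole range, which chance meets in about 1 of 20 groups. Above the rest of the ventral group, ventral library 2 had 1.67 CPM of Rab7b (the other 4 at 0.0471 to 0.166), 73.99 CPM of Rab9 (the other 4 at 47.4 to 54.5), 28.999 CPM of Rab26 (the other 4 at 17.8 to 20.4) and 14.8 CPM of Rab27a (the other 4 at 5.18 to 6.22). Ventral library 3 had 128 CPM of Rab5c (others 123 to 124), 409 CPM of Rab10 (others 301 to 329) and 91.9 CPM of Rab40b (others 43.2 to 50.6) above the rest, and 7.92 CPM of Rab36 (others 13.5 to 15.01) below. Dorsal library 2 had 4.67 CPM of Rab29 (others 2.24 to 2.902), 49.02 CPM of Rab35 (others 29.3 to 33.99) and 4.21 CPM of Rab39 (others 0.657 to 1.49) above the rest of the dorsal group and 77.4 CPM of Rab3b (others 97.8 to 104) below. Ventral library 5 had 8.43 CPM of Rab3d (others 5.31 to 6.06), and ventral library 1 had 38.2 CPM of Rab35, below the other ventral libraries (44.6 to 47.1). Of the genes that passed the test, Rab3b, Rab9 and Rab5c kept the direction of their difference whichever library was left out, with log2 fold changes of -1.03 to -0.85, -0.87 to -0.68 and -0.31 to -0.25, and Rab7b with 1.90 to 3.93.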

How the results depend on the processing

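The 14 ventral and 3 dorsal Rab members at the adjusted p stayed within 1.5 times of those counts under all alternatives but the GC and length correction of all genes, with 24 ventral members (26 with the replicate block added). Of 14 alternatives other than leaving out a library, the test was lost by Rab2a in 9, Rab11b in 7, Rab5c in 6, Rab7b in 4, Rab31 in 2 and Rab7 and Rab33a in 1 each, and by none of the other 10 members. In ventral, 5 members were called with DESeq2's size factors, 5 with upper-quartile factors, 5 with protein-coding genes alone, 18 with the GC and length correction and 19 with the block as well. In dorsal the counts were 3, 4, 3 and 2 with the first 4 of these settings. They were 0 by DESeq2, 0 by the likelihood-ratio test and 0 with the dispersions of edgeR 3, an alternative chosen after seeing the data. The DESeq2 calls joined its adjusted p to the ratio of TMM-scaled mean CPM plus 1. DESeq2's own log2 fold changes exceeded 0.58 for Rab22a (0.603, adjusted p = 8.54e-08), Rab31 (0.593, adjusted p = 0.00562) and Rab36 (0.63, adjusted p = 0.0422). Leaving out 1 library gave 10 to 17 ventral and 2 to 4 dorsal members, 6 to 9 and 0 to 3 of them called. Among all genes, the GC and length correction raised the ventral calls from 1655 of 16806 to 2846 of 16795. It raised the share of all genes higher in ventral from 14.6% to 23.9%. Partner genes in ventral numbered 19 of 132 in the main fit, 36 with that correction and 34 with the block too. They numbered 31 with the GC and length correction of protein-coding genes alone (chosen after seeing the data) and 12 to 22 without 1 library. In dorsal the partner genes numbered 14 by DESeq2, 4 with the GC and length correction of protein-coding genes alone and 5 to 13 without 1 library. The number of paralog pairs past the adjusted p stayed at 0 whichever library was left out. The ratios use raw counts within a library, so the scaling of libraries cannot change them. The ratios given here carry no GC and length correction. With the numbers as pairs, the exact sign-flip permutation test cannot go below p = 0.0625. The library measures kept direction and test, with dorsal minus ventral differences of 10.9 to 14 percentage points for pairs on no gene and 2030 to 2290, 1580 to 1820 and 821 to 971 CPM for mitochondrial mRNA, oligodendrocyte and astrocyte markers.

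With the GC and length correction, without and with the block, the log2 fold change turned negative for Rab5b (-0.0769 and -0.0761), Rab8b (-0.375 and -0.358), Rab10 (-0.206 and -0.203) and Rab28 (-0.731 and -0.733). Rab8b was at -0.00968 with the GC and length correction of protein-coding genes alone. Rab30 was 0.0248 with DESeq2's size factors, 0.0407 with upper-quartile factors, 0.0185 with total counts, 0.000831 without filter, 0.0204 with the stricter filter, 0.0205 by DESeq2, 0.0306 with the replicate block and 0.023 with protein-coding genes alone. Without 1 library, log2 fold changes that crossed 0 ranged over -0.00531 to 0.228 (Rab8b), -0.258 to 0.154 (Rab27a), -0.0797 to 0.148 (Rab30), -0.0314 to 0.881 (Rab32), -0.166 to 0.0109 (Rab33b) and -0.165 to 0.0533 (Rab40c), and log2 ratios over -0.0869 to 0.194 (Rab1a/Rab1b), -0.088 to 0.19 (Rab3a/Rab3b), -0.0417 to 0.0595 (Rab6a/Rab6b) and -0.106 to 0.0718 (Rab22a/Rab31). The cause of these changes was not tested. Same-numbered dorsal and ventral libraries did not deviate together (correlations -0.0317 to 0.0695, none of 5 above 0.1, and 2 libraries correlating best with their own number), so the numbers were not taken as pairs. With the replicate block, all genes called numbered 2656 in dorsal and 1672 in ventral, in place of 2636 and 1655, and 14 of the 17 members that differed still passed, without Rab2a, Rab5c and Rab11b.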
